A study of Mus musculus with 9 samples.

Results

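The genes described are 10 receptors for extracellular ATP and related nucleotides in the mouse trigeminal ganglion, the cluster of sensory neurons that serves the face, mouth and meninges. They are 6 P2X genes (P2rx2, P2rx3, P2rx4, P2rx5, P2rx6 and P2rx7) and 4 P2Y genes (P2ry1, P2ry2, P2ry12 and P2ry14), chosen by name from a fixed list and all found among the 21536 genes of the count table. The tissue came from wild-type FVB/N mice that the sample labels give as 3 to 6 weeks old, with no treatment and no other genotype. Ganglia of many animals of both sexes were pooled for each of 9 Drop-seq runs, dissociated, cleared of debris on a Percoll gradient and depleted of glia with a neuron isolation kit. Drop-seq captures 3′ ends of polyadenylated RNA from single cells in droplets and counts molecules by their unique molecular identifier (UMI).

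ATP that leaves damaged, stretched or active cells is a signal to sensory nerve endings. P2X receptors are cation channels that open when ATP binds, each built of subunits that can be alike or mixed, and the P2X3 subunit, alone or with P2X2, is the best known of them in pain and taste afferents. P2Y receptors are coupled to G proteins: the P2Y1 receptor answers mainly to ADP, P2Y2 to ATP and UTP, P2Y12 to ADP and P2Y14 to UDP sugars. Enzymes on the cell surface break ATP down to adenosine, which has receptors of its own.

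The table held 6997 cell barcodes with 30491529 UMIs, a median of 2031 UMIs each and a range of 1000 to 190815. A barcode counted as a neuron where 500 to 7500 genes had a UMI, at least 3 of the 6 neuronal genes Tubb3, Scn9a, Snap25, Nefl, Nefm and Uchl1 were present and the epithelial gene Epcam was absent, which left 3855 neurons with a median of 3014 UMIs. The barcodes did not name their run, so the 9 runs were 1 pooled sample. No spread between animals or runs could be had, no test was made, and all 95% intervals cover counting error only. Where a count was 0, the upper limit given is that of 3 counts of the total, which is tighter than the two-sided exact limit, and it limits cells with a UMI, not cells that express the gene. Barcode sequences found in 2 columns numbered 6, and 11 of those 12 columns were neurons; leaving them out kept each of the main values within its interval. Doublets were not removed.

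Neurons were assigned in turn to groups by marker UMIs. Trpm8 neurons (n = 244, median 5671 UMIs) had at least 2 UMIs of the cold channel gene, and Mrgprd neurons (n = 379, median 5371) at least 2 of a receptor gene of nonpeptidergic nociceptors. Mrgpra3 neurons (n = 49, median 4997) needed 1 UMI and Nppb neurons (n = 57, median 3406) 2 UMIs of genes known from itch neurons. Cd34 neurons (n = 320, median 5836) needed 1 UMI, Nefh neurons (n = 450, median 4108) 5 UMIs of the heavy neurofilament gene without the capsaicin receptor gene Trpv1, and Calca neurons (n = 916, median 3535) 5 UMIs of the CGRP gene with Trpv1. The remaining 1440 neurons met no group rule and were shallow, with a median of 1827 UMIs. The groups carried further markers of their kind: Gpr26 was found in 70.5% of Trpm8 neurons, Lpar3 in 75.2% of Mrgprd neurons, Sst in 84.2% of Nppb neurons, S100b in 79.6% of Nefh neurons and Tac1 in 98.1% of Calca neurons. In the Cd34 neurons, Fam19a4 and Piezo2, known from C low-threshold mechanoreceptors, were found in 74.1% and 94.1%. Piezo2 was not limited to this group: of the 450 Nefh neurons, 340 had Piezo2 and 47 had Fam19a4. Of the Mrgpra3 neurons, 71.4% had Etv1 and 6.12% had Mrgprx1. Many neurons lay at the limits of these rules: 133 Cd34 neurons had exactly 1 Cd34 UMI and 105 Mrgprd neurons exactly 2 Mrgprd UMIs, while 110 neurons of no rule had 1 Mrgprd UMI. The neurons of no rule also carried RNA of other cells, with 9443 UMIs per 1000000 (CPM) summed over 6 oligodendrocyte genes against 91.6 to 540 CPM in the named groups. Cd34 neurons had higher sums of some marker genes of other cell types than the other named groups. Their 6 Schwann cell genes summed to 2297 CPM, of which Pmp22 gave 2021, against 242 to 975 CPM in the other named groups, and their 5 vascular genes to 35.9 CPM against 3.09 to 7.34 CPM. Their 4 pituitary hormone genes summed to 901 CPM against 217 to 589 CPM. Genes of other glia were not highest in Cd34 neurons. The oligodendrocyte genes summed to 249 CPM there and 540 CPM in Nefh neurons, and 5 genes of satellite or ensheathing glia to 150 and 341 CPM. Whether the Pmp22 UMIs came from Schwann cells was not tested.

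The promoters of P2ry1 and P2rx6, whose levels differed widely between the neuron groups, are shown because they are unlike each other in base composition. Each runs from 250 bases before to 50 bases after the RefSeq start, on the plus strand of GRCm38, with CG dinucleotides in capitals.
P2ry1, chr3:61002535-61002834: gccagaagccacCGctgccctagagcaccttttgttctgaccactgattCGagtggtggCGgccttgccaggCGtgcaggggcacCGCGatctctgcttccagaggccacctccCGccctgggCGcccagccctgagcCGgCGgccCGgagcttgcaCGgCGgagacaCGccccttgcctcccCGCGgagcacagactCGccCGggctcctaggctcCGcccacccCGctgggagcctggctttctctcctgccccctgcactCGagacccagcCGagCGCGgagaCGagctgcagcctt
P2rx6, chr16:17561635-17561934: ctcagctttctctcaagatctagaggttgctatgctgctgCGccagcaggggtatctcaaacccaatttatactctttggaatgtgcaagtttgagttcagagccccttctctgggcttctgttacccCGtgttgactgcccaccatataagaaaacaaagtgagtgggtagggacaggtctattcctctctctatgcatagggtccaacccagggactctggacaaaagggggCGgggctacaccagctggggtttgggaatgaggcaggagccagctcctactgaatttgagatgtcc
The P2ry1 promoter held 25 CG dinucleotides and 70.7% G or C, and 18.4% of 32851 mouse promoters of this length held as many or more. The P2rx6 promoter held 3 CG dinucleotides, and 76.7% of promoters held as many or more. Of the 10 genes, 7 had a promoter in the RefSeq table. Both P2ry2 starts were as rich in CG as P2ry1, with 28 and 30, and P2rx4 had 18. P2rx7, P2ry12 and P2ry14 had between 1 and 8 at each start, against a median of 7 over all promoters.

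P2ry1, the ADP receptor gene (chr3:61002795-61008982), had the most UMIs of the 10 in neurons, 1591 in 599 of 3855 cells, and its level was highest in the Cd34 neurons. There it reached 305 CPM (95% Poisson interval 286 to 325, 944 UMIs) against 36.3 CPM in all other neurons, a log2 ratio of 3.07 (2.93 to 3.22). A UMI of P2ry1 was found in 76.2% of Cd34 neurons (exact binomial 95% interval 71.2 to 80.8), and in 25.3% when each cell was thinned at random to 1000 UMIs. With neurons holding RNA of glia left out, 117 of the 320 Cd34 neurons remained, and the log2 ratio was 3.15 (2.88 to 3.43). Nefh neurons followed with 77.4 CPM (68.4 to 87.4) and the neurons of no rule with 71.3 CPM (62.8 to 80.6), whose intervals overlapped. Mrgpra3 neurons had 40.2 CPM (21.4 to 68.8) and Mrgprd neurons 24.1 CPM (19.1 to 30.1), which could not be told apart either. The lowest levels were 7.04 CPM in Nppb, 5.95 CPM in Calca and 3.30 CPM in Trpm8 neurons, with overlapping intervals. In 577 haemoglobin-rich barcodes, taken as background, P2ry1 had 3.23 CPM (0.666 to 9.44), from which these lowest levels could not be told apart. Calca and Trpm8 neurons lay below the other neurons by log2 ratios of -4.03 (-4.61 to -3.50) and -4.67 (-5.99 to -3.63). On the log2(CPM + 1) scale, used for all ranges here, the level of P2ry1 ranged over 6.15 units across the 7 named groups, a wider range than in 99.0% of the 12114 genes with at least 50 UMIs in neurons. The low end of that range, in Trpm8 neurons, was at the background level. P2ry1 shares 992 bases, exons included, with the antisense gene Gm37035, which is not analysed here, and whether the strand was used in counting is not given in the sources used here.

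P2rx3, the gene of the ATP channel subunit of nociceptors, had 624 UMIs in 408 neurons, and its level was highest in the Mrgprd neurons. It reached 84.1 CPM there (74.4 to 94.6, 275 UMIs) against 19.8 CPM in the other neurons, a log2 ratio of 2.09 (1.85 to 2.32), and a UMI was found in 39.3% of Mrgprd neurons (34.4 to 44.4; thinned 7.65%). Nppb neurons came next with 63.4 CPM from 18 UMIs, whose interval of 37.6 to 100 CPM overlapped that of the Mrgprd neurons. Cd34 and Nefh neurons stood at similar levels, 30.4 CPM (24.5 to 37.2) and 29.1 CPM (23.7 to 35.5). Neurons of no rule had 16.8 CPM, Calca neurons 13.96 CPM and Mrgpra3 neurons 12.4 CPM, with overlapping intervals. Trpm8 neurons were lowest, with 6 UMIs, 2.83 CPM (1.04 to 6.16) and a log2 ratio of -3.54 (-4.99 to -2.41). A UMI was found in 14.4% of Nefh neurons and 2.44% after thinning, against 0.520% and 0.347% of 577 haemoglobin-rich barcodes (median 1384 UMIs), which should lack the gene. The level in these barcodes was 3.23 CPM (0.666 to 9.44), and that of Trpm8 neurons was not above it. P2rx3 (chr2:84998583-85037462, minus strand) shares 229 bases with Ssrp1 on the opposite strand, whose level was 94.4 CPM in Mrgprd and 117 CPM in the other neurons.

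P2rx2, whose subunit can join P2X3 in one channel, was sparse, with 81 UMIs in 70 neurons. Nppb neurons held 13 of these UMIs in 11 of 57 cells, 45.8 CPM (24.4 to 78.3), which was a log2 ratio of 3.80 (2.82 to 4.67) to the other neurons. The other named groups had 1.22 to 6.19 CPM and the neurons of no rule 6.74 CPM (4.32 to 10.02). Among the named groups other than Nppb all intervals overlapped. A UMI was found in 19.3% of Nppb neurons (10.05 to 31.9) but in 3.51% after thinning, which is 2 cells, and in 0 of 577 haemoglobin-rich barcodes, which allows a share of up to 0.520% by 3 counts and 0.637% by the two-sided exact interval.

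P2rx6, a subunit gene that yields little channel on its own, had 145 UMIs, of which Nefh neurons held 86. Their level was 25.3 CPM (20.3 to 31.3) against 3.37 CPM in the other neurons, a log2 ratio of 2.91 (2.42 to 3.41), and 14% had a UMI (thinned 2.22%). Trpm8 neurons were second with 8.96 CPM (5.39 to 13.99), above the 2.05 CPM (0.985 to 3.78) of Calca neurons. Cd34 neurons with 4.20 CPM and neurons of no rule with 4.49 CPM lay between and overlapped both neighbours. P2rx6 was found in 0 of 379 Mrgprd neurons, which allows a share of up to 0.792% by 3 counts and 0.969% by the two-sided exact interval. Set at 3 UMIs over the group, their level was at least 8.96-fold lower than in the other neurons, and the upper 95% limit of the log2 ratio was -2.85. P2rx6 lies at chr16:17561885-17577800 and shares 5783 bases, exons included, with Slc7a4 on the opposite strand. With the strand of counting unknown, reads of the shared part cannot be assigned with certainty. Slc7a4 had its own UMIs at 29.7 CPM in Nefh neurons and 32.4 CPM in the other neurons.

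P2rx4, a channel subunit gene found in many cell types, was the most even of the 6 genes with at least 50 UMIs, with 430 UMIs spread over all 8 groups. Nppb neurons had 49.3 CPM (27.0 to 82.7, 14 UMIs), Mrgpra3 neurons 34.0 CPM (16.99 to 60.9, 11 UMIs) and Trpm8 neurons 10.8 CPM (6.87 to 16.3). The 5 remaining groups, neurons of no rule included, lay between 17.1 and 23.8 CPM with overlapping intervals. The ratio of Nppb neurons to the other neurons was 1.29 on the log2 scale (0.41 to 2.05) with all UMIs and 0.014 (-5.31 to 2.54) after thinning, which left 1 UMI in the group. Its range over the named groups, 2.09 units of log2(CPM + 1), exceeded that of 66.2% of genes.

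P2ry2, the receptor gene for ATP and UTP, had 99 UMIs, of which 39 were in Cd34 neurons. Its level there was 12.6 CPM (8.96 to 17.2), a log2 ratio of 1.90 (1.28 to 2.51) to the other neurons, and 10% had a UMI (thinned 0.312%, 1 cell). The log2 ratio was 0.14 (-5.30 to 2.96) after thinning and 2.93 (1.71 to 4.09) in the 117 Cd34 neurons left without glial RNA. Nppb neurons had 10.6 CPM from 3 UMIs (2.18 to 30.9) and Mrgpra3 neurons 6.19 CPM from 2 UMIs. Nefh, Calca and no-rule neurons lay between 3.09 and 5.01 CPM, and Mrgprd neurons had 1.53 CPM (0.496 to 3.57). P2ry2 was found in 0 of 244 Trpm8 neurons, which allows a share of up to 1.23% by 3 counts and 1.50% by the two-sided exact interval. With 3 UMIs over the group the level was at least 3.72-fold lower than in the other neurons, and the upper 95% limit of the log2 ratio was -1.57.

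**Figure D1:**
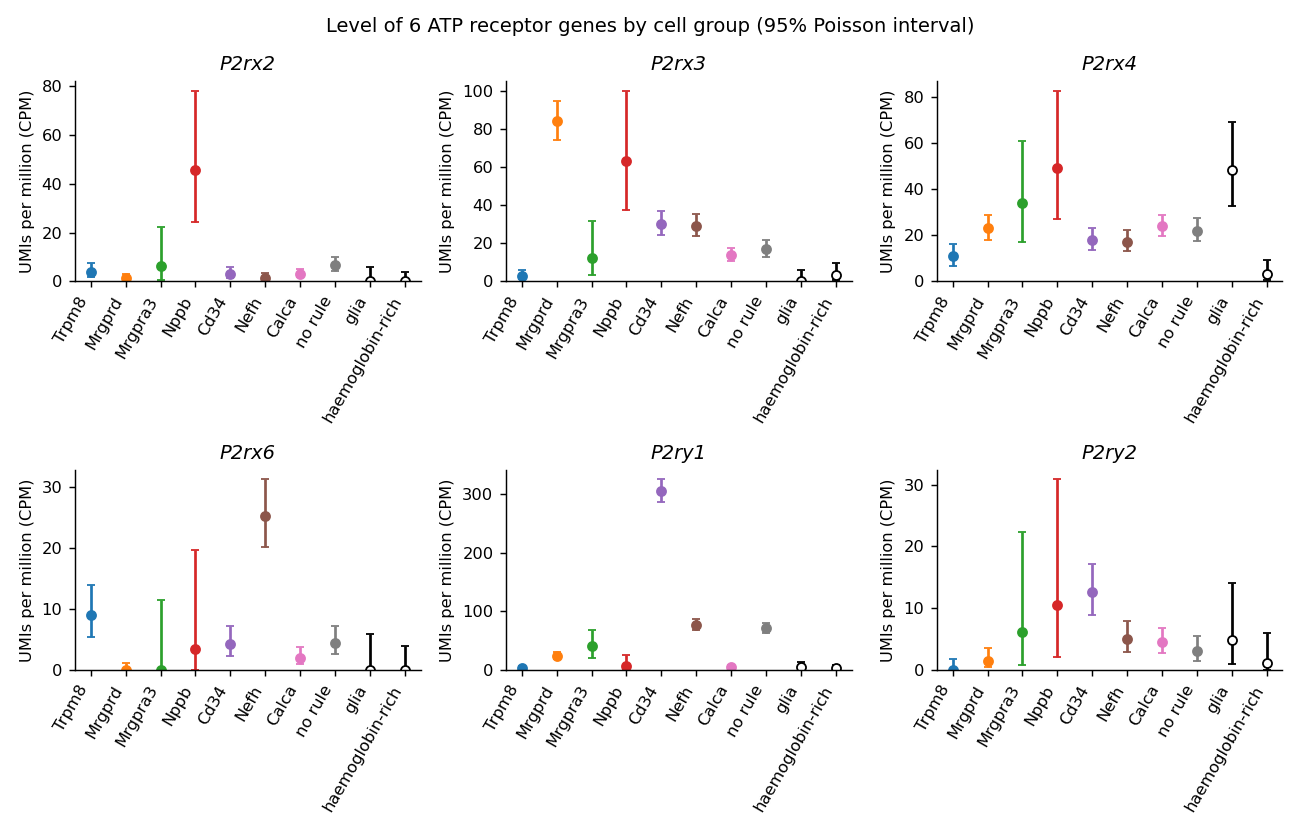
Level of P2rx2, P2rx3, P2rx4, P2rx6, P2ry1 and P2ry2 in UMIs per 1000000 (CPM, vertical axes with a scale of their own) in the 7 named neuron groups, neurons of no rule, glia and haemoglobin-rich barcodes. Points are pooled levels and bars 95% Poisson intervals; P2ry1 stands at 305 CPM in Cd34 neurons and P2rx3 at 84.1 CPM in Mrgprd neurons, while the bars of Nppb and Mrgpra3 neurons are wide and rest on 57 and 49 cells.

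The 4 remaining genes had under 50 UMIs in all neurons and were not counted in the comparison of groups. P2rx5 had 35 UMIs, 16 of them in Nefh neurons at 4.71 CPM (2.69 to 7.65), a log2 ratio of 2.12 (1.06 to 3.16) to the other neurons. Mrgpra3 neurons had 6.19 CPM from 2 UMIs, and no UMI was left in either group after thinning. P2ry14 had 17 UMIs, with 6 in Nefh and 7 in Calca neurons, at 1.77 and 1.44 CPM. P2rx7 had 9 UMIs in 9 neurons, at most 4 in any group. P2ry12 had 4 UMIs, all in neurons of no rule and none in a named group.

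A gene was counted as higher in a group where its CPM was at least 2 times that of all other neurons, among the 12114 genes with at least 50 UMIs. The receptor genes were chosen with earlier results of these data known, so their comparison with all genes is not independent. All 6 tested receptor genes passed the threshold of 2 times in at least 1 named group, as did 28.9% of all genes tested. In Nppb neurons 4 of the 6 did, P2rx2, P2rx3, P2rx4 and P2ry2, beside 6.26% of all genes, and the interval of the P2ry2 ratio, -1.12 to 2.77 on the log2 scale, included equal levels. P2rx4 passed in no other named group, and its ratio in Nppb neurons after thinning was 0.014. In Cd34 neurons P2ry1 and P2ry2 passed, beside 4.25% of all genes, P2ry2 not after thinning. In Mrgprd neurons it was P2rx3 alone, beside 5.27%, and in Nefh neurons P2rx6 alone, beside 5.52%. None of the 6 passed in Trpm8 (3.66% of all genes), Mrgpra3 (6.22%) or Calca neurons (5.42%). The ranges over named groups of P2rx6 (4.72 units of log2(CPM + 1)), P2rx3 (4.47), P2rx2 (4.40) and P2ry2 (3.77) were wider than in 95.5%, 94.4%, 94.0% and 89.5% of genes. P2rx2 and P2ry2 have few UMIs, and the ranges of P2rx6 and P2ry2 run down to a group at 0 UMIs, so that the added 1 CPM sets them.

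The mix of receptors differed by group. Of the 1160 receptor UMIs of Cd34 neurons, 81.4% were P2ry1. Of the 441 in Mrgprd neurons, 62.4% were P2rx3. P2rx4 was 42.0% of the 276 in Calca neurons, and in Trpm8 neurons P2rx4 and P2rx6 gave 35.9% and 29.7% of only 64. Nefh and Calca neurons had UMIs of 9 of the 10 genes each, and P2ry1 gave 47.7% of the 551 in Nefh neurons. A gene's share falls where another receptor is high, and tagging at the 3′ end catches some genes better than others, so these shares describe the mix of UMIs and not levels.

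**Figure D2:**
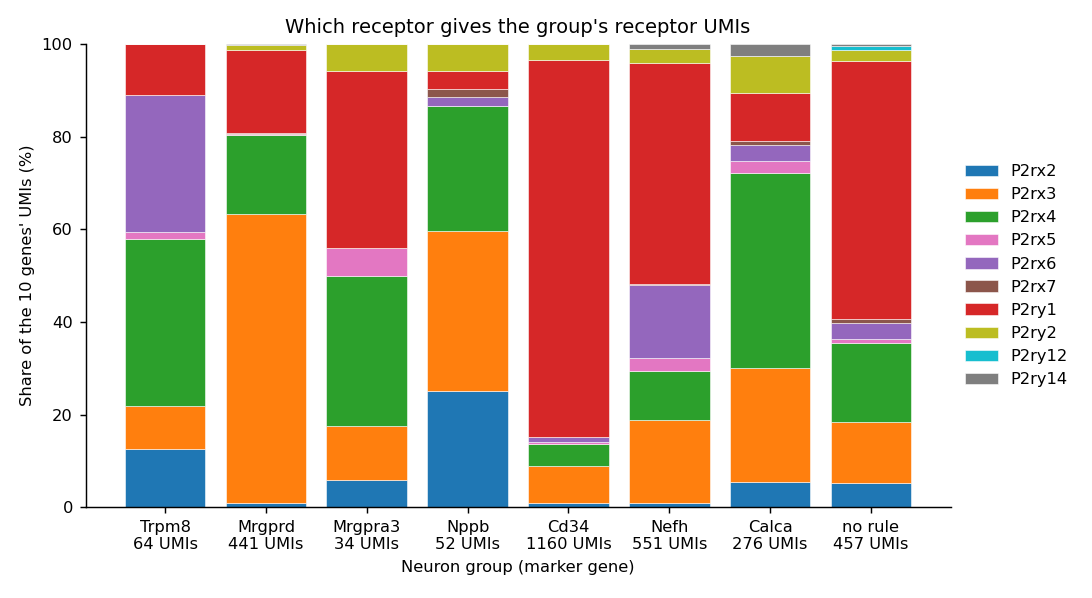
Share of each receptor gene in the UMIs of all 10 genes (vertical axis, %) in each neuron group, with the number of receptor UMIs under each bar. P2ry1 fills 81.4% of the bar in Cd34 neurons and P2rx3 62.4% in Mrgprd neurons, and the bars of Mrgpra3, Nppb and Trpm8 neurons rest on 34, 52 and 64 UMIs.

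At least 1 of the 10 genes was seen in 32.6% of neurons (31.1 to 34.1), and in 10.6% after thinning. The share was 81.9% in Cd34, 53.6% in Mrgprd, 47.4% in Nppb, 46.2% in Nefh and 32.7% in Mrgpra3 neurons. It was 22.1% in Calca neurons, 20.2% in neurons of no rule and 19.3% in Trpm8 neurons. These shares were not at matched depth. After thinning the order changed, with 29.1% in Cd34, 13.1% in Nefh, 11.6% in Mrgprd and 11.1% in neurons of no rule. The thinned share was 8.77% in Nppb, 4.59% in Calca and 4.08% in Mrgpra3 neurons. The Trpm8 neurons were the second deepest named group and yet among the lowest, with 0.820% after thinning. For comparison, 1.73% of haemoglobin-rich barcodes had any of the 10, and 1.21% (0.489 to 2.48) did after thinning. The thinned share of Trpm8 neurons (0.0994 to 2.93) was thus not above that background. UMIs of 5 or more of the genes were found in 5 neurons.

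Shares followed depth, and levels did so less. When Cd34 neurons were cut into terciles by their UMIs, from shallow to deep, P2ry1 was found in 57.9%, 81.3% and 89.6%, at levels of 345 (281 to 420), 317 (276 to 363) and 296 CPM (273 to 320). In the terciles of Mrgprd neurons P2rx3 was found in 16.5%, 35.7% and 65.9%, at 74.7, 86.7 and 84.5 CPM with overlapping intervals. P2rx4 in Calca neurons went from 4.58% to 20.3% at 29.3, 25.2 and 22.4 CPM. P2rx6 in Nefh neurons was an exception, with 46.5 CPM (24.8 to 79.5) in the shallow tercile, 35.6 CPM in the middle and 20.2 CPM (15.02 to 26.7) in the deep tercile, where the outer intervals overlapped by a narrow margin. P2ry1 in Nefh neurons was found in 6.67%, 22.7% and 36.7%, and even the deep tercile, with a median of 10976 UMIs, left most of its cells without a UMI.

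**Figure D3:**
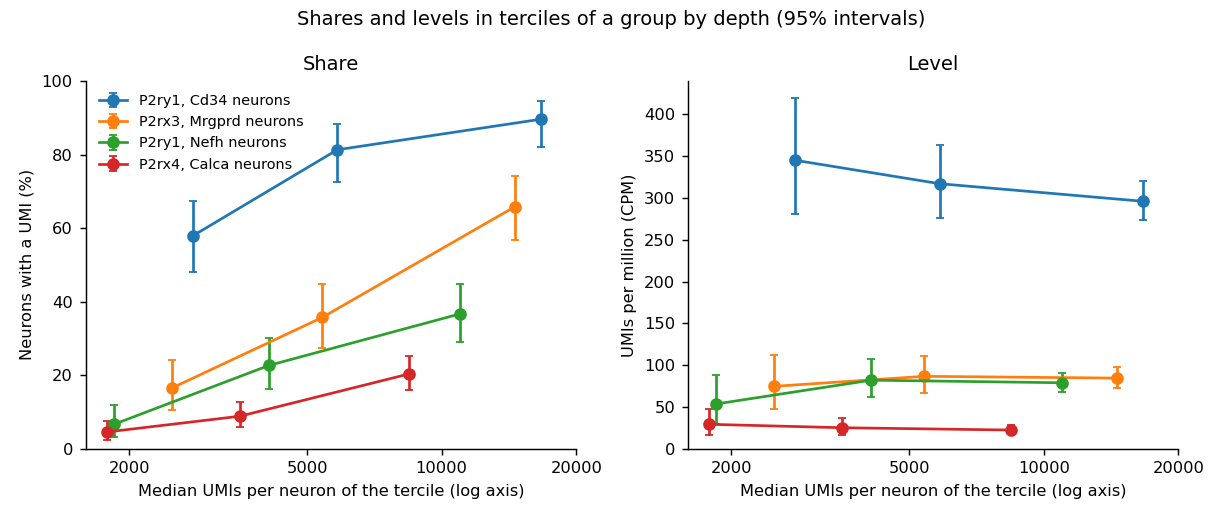
Share of neurons with a UMI (left, %) and pooled level (right, CPM) in the shallow, middle and deep tercile of a group, placed at the tercile's median UMIs on a log axis, with 95% intervals. The share of P2rx3 in Mrgprd neurons goes from 16.5% to 65.9% while its level stays between 74.7 and 86.7 CPM.

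Whether a group was even in a receptor was described by comparing its share of positive cells with the share that the pooled level would give if each cell had that same level, given its depth. For P2ry1 in Cd34 neurons these were 76.2% and 78.8%, for P2rx3 in Mrgprd neurons 39.3% and 42.8%, and for P2rx6 in Nefh neurons 14% and 15.5%. The widest gap was that of P2ry1 in Nefh neurons, 22.0% (18.3 to 26.1) against 35.0%. There 1 neuron alone held 23 of the 263 UMIs, or 8.75%. P2rx4 and P2ry1 in the 49 Mrgpra3 neurons had 12.2% against 18.6% and 16.3% against 21.3%, with expected shares inside the intervals of those seen. P2ry1 in neurons of no rule had 10.8% against 15.4%, and P2rx3 in Cd34 neurons had 18.4% against 22.7%.

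**Figure D4:**
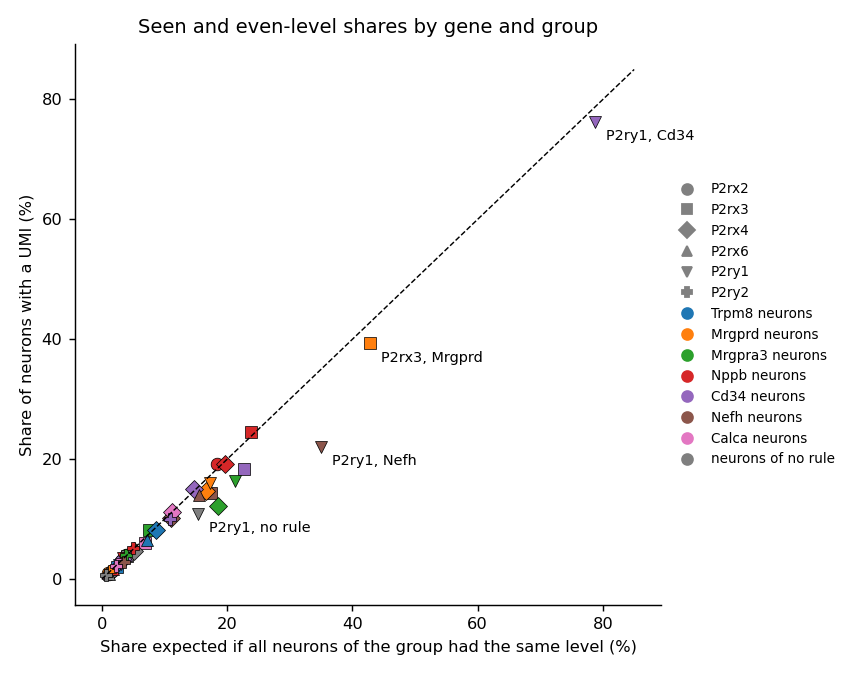
Share of neurons with a UMI (vertical axis, %) against the share expected from an even level over the cells of a group (horizontal axis, %), for 6 genes (symbols) and 8 groups (colours), with combinations without a UMI left out. Most points lie near the dashed line of equal shares, and P2ry1 in Nefh neurons lies below it with 22.0% against 35.0%.

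The groups were then divided by 1 further gene at a time, in 25 splits chosen after the group levels had been seen. Of the 150 ratios between the sides, 18 had intervals above equal levels, 21 below and 111 included them or had no value. Cells can vary by more than counting error, so these intervals may be too narrow. The sides of a split often differed in depth too, and its part in the ratios was not tested. Nefh neurons with at least 5 Calca UMIs had a median of 6021 UMIs and the rest 3789. For Lpar3 in Mrgprd neurons the medians were 6996 and 2901, and for Nefh in Cd34 neurons 17004 and 4664. The level of P2rx6 in Nefh neurons also went down from the shallow to the deep tercile, with overlapping intervals. In Nefh neurons, P2ry1 stood at 122 CPM (102 to 146) in the 91 cells with at least 2 UMIs of Ntrk2, the BDNF receptor gene, a log2 ratio of 1.08 (0.72 to 1.44) to the rest, and 16.5% of these cells had a UMI after thinning. The 340 Nefh neurons with the touch channel gene Piezo2 had 85.9 CPM, a log2 ratio of 3.41 (1.85 to 5.70) to those without. In the 89 Nefh neurons with at least 5 UMIs of Calca, P2ry1, P2rx6 and P2rx4 were all lower, at 40.1, 8.66 and 6.50 CPM, by log2 ratios of -1.19 (-1.73 to -0.68), -1.86 (-3.13 to -0.82) and -1.69 (-3.20 to -0.48). The ratio of P2rx3 there was 0.29 (-0.37 to 0.92), and P2ry2 was higher, with 9.75 CPM from 9 UMIs against 3.23 CPM and a ratio of 1.59 (0.04 to 3.17).

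Among Mrgprd neurons, the 285 with a UMI of Lpar3, a lysophosphatidic acid receptor gene, had 90.7 CPM of P2rx3 and a log2 ratio of 1.03 (0.39 to 1.75) to the 94 without, while P2ry1 was lower in them by a ratio of -1.19 (-1.93 to -0.41). In Cd34 neurons, the 237 with Fam19a4 had 338 CPM of P2ry1 (316 to 361), a log2 ratio of 1.26 (0.92 to 1.63), and 85.2% had a UMI. Levels of P2ry2 and P2rx6 were lower in these cells, by ratios of -1.31 (-2.32 to -0.23) and -2.99 (-4.95 to -1.20), the latter from 5 UMIs. Cd34 neurons with Scin, a gene of an actin-severing protein, had 11.6 CPM of P2rx3 and a ratio of -2.03 (-2.88 to -1.25), and those with at least 5 Nefh UMIs had 39.8 CPM and a ratio of 0.87 (0.25 to 1.52). Cd34 UMIs were also found in 67.3% of 110 barcodes with markers of blood vessel cells.

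When the neurons of no rule were divided in the same way, P2ry1 was again higher with Fam19a4 and P2rx3 with Lpar3. P2ry1 stood at 237 CPM (199 to 281) in the 155 with Fam19a4, of which 47.7% had a UMI, with a log2 ratio of 2.59 (2.22 to 2.95) to the rest. P2rx3 stood at 73.7 CPM (45.0 to 114) in the 110 with 1 UMI of Mrgprd and at 60.8 CPM (36.0 to 96.1) in the 110 with Lpar3, with ratios of 2.60 (1.75 to 3.41) and 2.24 (1.36 to 3.07). In the 419 with at least 5 Calca UMIs, P2ry1 was lower, with 17.4 CPM and a ratio of -2.40 (-3.20 to -1.69). No UMI of P2rx3 was found in the 93 that had 1 UMI of Trpm8. Other differences of the named groups were not seen again. The ratio of P2ry1 with Lpar3 was -0.085 (-0.82 to 0.58). With Fam19a4, the ratios of P2rx6 and P2ry2 were 1.24 (-0.63 to 2.89) and 0.97 (-1.58 to 3.03).

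**Figure D5:**
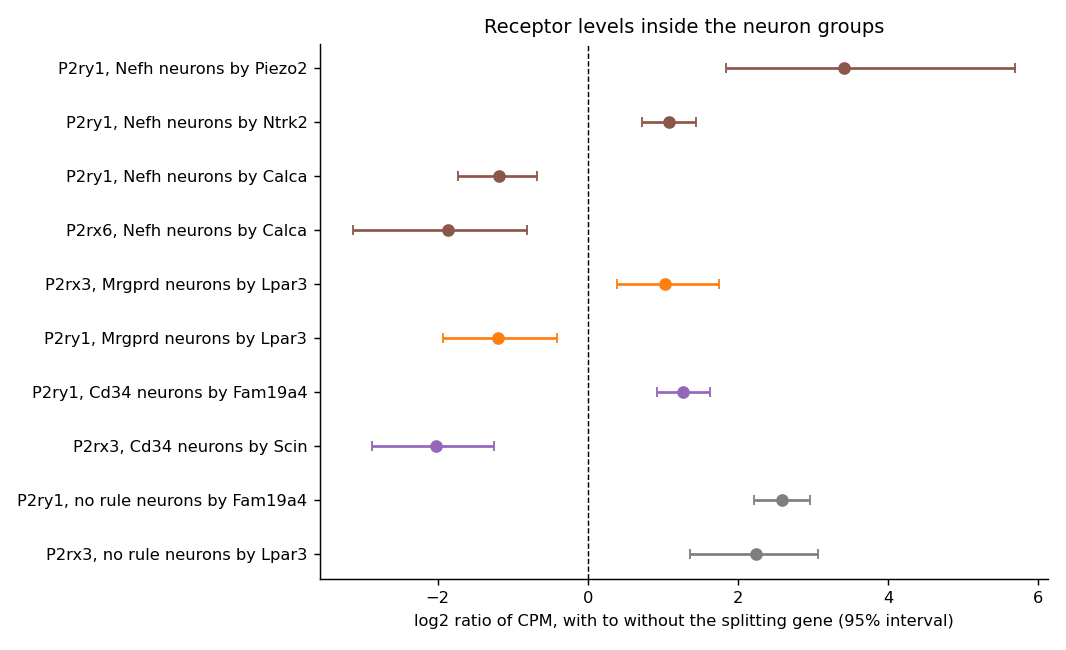
Ratio of a receptor's CPM between cells with and without a splitting gene, within a neuron group (log2, horizontal axis), for 10 of the 150 ratios, with 95% intervals; colours mark the groups and the dashed line equal levels. P2ry1 lies at 1.08 for Nefh neurons by Ntrk2 and at 1.26 for Cd34 neurons by Fam19a4, and P2rx3 at -2.03 for Cd34 neurons by Scin.

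UMIs of P2rx2 and P2rx3 were found together in 19 neurons. Of the 70 neurons with P2rx2, 27.1% (17.2 to 39.1) had P2rx3, against 10.3% (9.33 to 11.3) of those without P2rx2. The first had a median of 5289 UMIs and the second of 2969, so their shares are not at matched depth. At 1000 UMIs a cell, 8.70% of 23 neurons with P2rx2 had P2rx3 (1.07 to 28.0), and 2.39% of all neurons did (1.93 to 2.92). Within Nppb neurons, 6 of 11 with P2rx2 also had P2rx3, 54.5% (23.4 to 83.3), against 17.4% (7.82 to 31.4) of the others, at medians of 5283 and 2846 UMIs. P2rx3 and P2ry1 were found together in 117 neurons. In Cd34 neurons 86.4% of those with P2rx3 had P2ry1, against 73.9% without, and in Mrgprd neurons 20.8% against 13.04%. The neurons with P2rx3 were deeper in both groups, with medians of 12374 against 5352 UMIs and of 9621 against 4160 UMIs.

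Genes with the most similar pattern were sought by Pearson r of log2(CPM + 1) over the 8 groups, among 9315 genes with at least 200 UMIs, for the 4 receptors with at least 100. The groups share 1 pooled library, and r is given as a description. For P2ry1 these included Gripap1 (r = 0.98) and Gm7271 (0.98). For P2rx6 they were Thy1 (0.99), the gene of a neuronal surface glycoprotein, Tspyl4 (0.98) and Syt2 (0.97), a calcium sensor of synaptic vesicles. For P2rx4 they were the importin gene Kpna6 (0.99), Samhd1 (0.98) and Vps13b (0.98). Each of these peaked in Nppb neurons at 38.7 CPM, where P2rx4 had 14 UMIs, so the matches rest on few UMIs there. The P2rx4 log2 ratio of that group was 0.014 after thinning. For P2rx3 they were Fkbp8 (0.95), Camsap2 (0.95), which stabilizes microtubule ends, and Kctd3 (0.95). Gm7271 had its top level in Cd34 neurons at 1029 CPM, and Thy1 in Nefh neurons at 606 CPM.

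In barcodes that were not neurons, some receptors were higher than in neurons and others were not seen. The 281 with markers of glia (211 with oligodendrocyte genes, 51 with Schwann cell genes and 19 with Fabp7; median 1681 UMIs) had 48.3 CPM of P2rx4 (32.6 to 68.9, 30 UMIs) against 20.6 CPM (18.7 to 22.6) in neurons. P2rx4 was at 3.23 CPM (0.666 to 9.44) in haemoglobin-rich barcodes, so its presence in glia was above that background. P2rx7, a channel gene known from glia and immune cells, had 5 UMIs in glia, 8.05 CPM (2.61 to 18.8), against 0.430 CPM (0.197 to 0.817) in neurons. P2ry12 had 6 UMIs in glia, 9.66 CPM (3.54 to 21.0), and its 4 UMIs in neurons were in the group with the most glial RNA, whose part was not tested. Both P2rx7 and P2ry12 had 0 UMIs in the haemoglobin-rich barcodes, where the two-sided exact upper limit of 3.97 CPM overlapped their intervals in glia. P2ry12, also known as a microglial gene, and P2ry14 lie wholly within Med12l, a gene on the opposite strand. Macrophage genes marked 2 barcodes, in which 3 fibroblast genes summed to 47391 CPM against 2962 CPM for the 7 macrophage genes. Macrophages were thus too few to describe, and other immune cells were not looked for. In neurons the 7 macrophage genes summed to 2.01 CPM, with 2 of them at 0. P2rx2, P2rx3, P2rx5, P2rx6 and P2ry14 were found in 0 of the 281 glia, which allows a share of up to 1.07% each by 3 counts and 1.30% by the two-sided exact interval. P2ry1 and P2ry2 had 3 UMIs each in glia, 4.83 CPM (0.996 to 14.1). All 3 of P2ry2 were in the 51 barcodes with Schwann cell genes, at 38.7 CPM (7.99 to 113) against 4.73 CPM (3.85 to 5.76) in neurons. The P2ry2 ratio of Cd34 neurons was 2.93 in the 117 without glial RNA and 0.14 after thinning, as given above. Whether RNA of Schwann cells adds to the P2ry2 of Cd34 neurons was not tested.

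Of 27 other genes of ATP and adenosine signalling, 23 were in the table, 13 had at least 50 UMIs in neurons and 8 passed 2 times the other neurons in a named group, a share to be read beside the 28.9% of all genes. Among enzymes on the cell surface, Acpp, the acid phosphatase that makes adenosine from AMP, had 749 CPM in Mrgprd neurons (log2 ratio 2.30, 2.22 to 2.38) and 814 CPM in Mrgpra3 neurons (1.78, 1.60 to 1.96). Nt5e, another ectoenzyme with this activity, had 46.2 CPM in Mrgprd and 66.9 CPM in Nppb neurons, with log2 ratios of 2.18 (1.86 to 2.498) and 2.15 (1.39 to 2.81). The ATP-hydrolysing Entpd2 passed in Calca neurons with 6.78 CPM (1.56, 0.83 to 2.27). The ATP-releasing pannexin gene Panx1 had 206 CPM in Mrgprd neurons, a ratio of 1.20 (1.06 to 1.33).

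All 4 genes of adenosine uptake and use passed. The adenosine kinase gene Adk had 1680 CPM in Nppb neurons (1532 to 1837; ratio 3.15, 3.01 to 3.29), 767 CPM in Mrgpra3 neurons (1.93) and 521 CPM in Mrgprd neurons (1.78). Ada, the gene of adenosine deaminase, had 123 CPM in Nppb neurons (85.8 to 171, 35 UMIs) against 3.20 CPM in the other neurons, a ratio of 5.27 (4.63 to 5.88), and 27.8 CPM in Mrgpra3 neurons from 9 UMIs (2.64, 1.47 to 3.63). The nucleoside transporter gene Slc29a1 had 137 CPM in Nppb neurons (2.10, 1.59 to 2.56), and Slc29a2 had 13.2 CPM in Nefh neurons (1.47, 0.91 to 2.01). Nppb neurons, the highest of the groups in P2rx2, were thus also the highest in Adk, Ada and Slc29a1. The tested genes that passed in no named group were Adora1, Entpd3, Enpp2, Panx2 and Lrrc8a. Of the other ATP receptor genes on the list, P2rx1 and P2ry10 had under 50 UMIs, and P2ry4, P2ry6 and P2ry13 were absent from the count table.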

How the data were processed

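The count table was used as the authors deposited it: whole-number UMI counts per gene and cell barcode, not normalized. Per the labels and the study's methods, reads were converted with bcl2fastq (2.17), aligned to mm10 with STAR (2.5.3a) and counted by UMI, barcodes with over 1000 transcripts were kept, and Seurat (1.4.0.16) is named. Levels (CPM) are a gene's pooled UMIs scaled to 1000000 in total for the group. Intervals are at the 95% level: exact Poisson for CPM, Clopper-Pearson for shares and exact conditional binomial for ratios. Thinning drew 1000 UMIs per cell without replacement with a fixed seed. Python 3.11.15, NumPy 2.4.6 and SciPy 1.17.1 were used, and the ratio interval was tested on simulated data. Glia and haemoglobin-rich barcodes failed the neuron rule and had at least 200 genes, with under 3 neuronal genes; haemoglobin took at least 10% of UMIs in the latter. Named genes were the 10 members, the 3 most similar genes of each member with at least 100 UMIs, and pathway genes past 2 times. Some items are not reported here. Splitting genes, and the ratios named from them, were chosen after values were seen. The members and all lists were chosen with earlier results of these data known. Positions are from GENCODE on GRCm38. Alternatives covered the gene minimum, thinning, averaging, marker thresholds, multiple matches, glial RNA and depth.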

Additional observations from a re-analysis of the deposited data

How the results depend on the processing

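Of 123 alternative values of 13 results, 101 stayed within the main 95% interval and 22 moved outside it. None of the log2 ratios among them changed sign, and shares have no direction. The cause was not tested where no construction is named. Thinning to 1000 UMIs lowers shares by its construction: P2rx2 in Nppb neurons was 3.51%, P2rx3 in Mrgprd neurons 7.65%, P2rx4 in Nppb neurons 1.75%, P2rx6 in Nefh neurons 2.22%, P2ry1 in Cd34 neurons 25.3%, P2ry2 in Cd34 neurons 0.312%, and P2rx3 among P2rx2 neurons 8.70%. Thinned log2 ratios were 2.82 for P2ry1 in Cd34, 0.14 for P2ry2 in Cd34 and 0.014 for P2rx4 in Nppb neurons, so the last 2 have no support at that depth. With neurons holding glial RNA left out (2329 of 3855 kept), the ratio was 2.36 for P2rx3 in Mrgprd and 2.93 for P2ry2 in Cd34 neurons, and P2ry1 was in 68.4% of Cd34 neurons. Doubled thresholds gave P2rx3 in 51.8%, P2rx6 in 18.2% and P2ry1 in 87.7% of their groups, and a P2ry1 ratio of 2.89. Without neurons of more than 1 rule, P2rx3 was in 33.7% of Mrgprd and P2ry2 in 6.88% of Cd34 neurons. Without the deepest 10% of each group, P2rx3 was in 34.0%. The mean of per-cell CPM gave a P2ry1 ratio of 2.88. Of the 3 alternatives added after seeing the data, leaving out neurons of no rule gave a P2ry1 ratio of 3.47, and leaving out shared barcodes or neurons with markers of other cell types moved none of the 13. No paired analysis was possible because the runs form 1 pooled table whose barcodes name no run. Depth limits P2rx5, P2rx7, P2ry12 and P2ry14 to a few UMIs.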
